A study of Mus musculus with 12 samples.

Results

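Aqp5, Kcne1l, Tm4sf5, Nrn1, Vgll2 and Myl1 were followed through single-cell RNA sequencing of E12 mouse gonads. They were selected on their low levels in gonadal somatic cells of -KTS KO embryos, as 6 of the 32285 genes in the feature list, so their values in -KTS KO against WT are given as a description with no test. The study compared XX and XY gonads of 3 genotypes, with 2 libraries in each of 6 groups: XX WT, XY WT, XX -KTS KO, XY -KTS KO, XX +KTS KO and XY +KTS KO. The -KTS KO embryos (-KTS-/-KTS-) cannot make the -KTS variant of WT1, and the +KTS KO embryos (+KTS-/+KTS-) cannot make the +KTS variant and serve as the mouse model of Frasier syndrome. All embryos were of 1 age, E12 with 23 ± 3 tail somites, and of a mixed B6CBAF1/JRj background. Both gonads of an embryo were taken after removal of the mesonephros, and gonads of several embryos were pooled in the -KTS KO samples. The labels do not say which embryos or litters stand behind replicates 1 and 2, so p-values measure the spread between these libraries only. The WT libraries also entered the choice of the 6 genes, so tests that use WT libraries are not free of that choice. Only the comparison of XY with XX +KTS KO used none of the libraries behind it.

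WT1 is a zinc finger protein of the gonadal soma. Alternative splicing adds or leaves out the amino acids lysine, threonine and serine (KTS) between its last zinc fingers; the variant without them is known to bind DNA as a transcription factor, and the one with them has been linked to RNA. The bipotential gonad holds supporting cells, which become Sertoli cells in a testis or granulosa cells in an ovary, a coelomic epithelium at its surface, and interstitial progenitors that later give steroidogenic cells. The 6 genes have different roles: Aqp5 encodes a water channel, Kcne1l a regulatory subunit of voltage-gated potassium channels, Tm4sf5 a membrane protein of the L6 family with 4 transmembrane stretches, Nrn1 (neuritin) a membrane-anchored protein known from neurite growth, Vgll2 a vestigial-like cofactor of TEAD transcription factors, and Myl1 a light chain of fast skeletal muscle myosin.

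Of 103730 barcodes, 76976 were kept and 66063 lay in the 25 of 35 clusters classed as gonadal somatic, meaning all clusters not named germ, endothelial, erythroid, immune, mesonephric duct or skeletal muscle cells from their markers. Unnamed clusters count among them, also 56 cells led by Pf4 and Ppbp. The 6 genes were left out of the variable genes used for clustering. Libraries held 108111924 to 147968666 UMIs (unique molecular identifiers, here counts of captured RNA molecules), of which 56988717 to 98267539 came from gonadal somatic cells, and levels are given as CPM, the UMIs of a gene per 1000000 UMIs of those cells in the library. A count of 3, the floor used for detection, equals 0.0305 to 0.0526 CPM. Wt1 itself, read as the sum of both variants because 3′ counts cannot tell them apart, lay between 158 and 309 CPM in all libraries and passed no test. Libraries shared at most 32 barcodes (0.389% of the smaller). The 2 XY +KTS KO libraries stood apart from each other. Replicate 1 gave 3118 of the 3200 cells of a pre-granulosa-like cluster with Btg2 and Fos among its leading genes, and 1638 of the 1732 cells of an interstitial-progenitor-like cluster led by Btg2, Egr1 and Fos, with Fos, Jun and Egr1 together at 1461 CPM against 247 to 488 CPM in the other libraries. Replicate 2 held all 97 skeletal-muscle-like cells and 71 of 72 duct-like cells of the series, and 585 of the 593 cells of an interstitial-progenitor-like cluster led by Hoxc10 and Alx1. In XX -KTS KO replicate 2, 920 of 4043 gonadal somatic cells lay in a cluster led by AY036118 and Gm42418, genes seen in cells of low quality.

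The label of the set held for some of its genes and not for others. Aqp5, Vgll2 and Kcne1l were lower in both XX and XY -KTS KO than in WT of the same sex, with no overlap of libraries. The ratio of group means ran from 5.57 to 170 for Aqp5 and Kcne1l, and none is given for Vgll2, which was at the floor in 1 -KTS KO library. Tm4sf5 was lower by ratios of 1.77 in XX and 1.75 in XY. Myl1 was low in XX -KTS KO but overlapped between XY -KTS KO and XY WT, and Nrn1 went against the label, with XX -KTS KO libraries inside the XX WT range and XY -KTS KO libraries above XY WT. Across all 17741 genes tested, 16.3% were called between XX -KTS KO and XX WT and 23.5% between XY -KTS KO and XY WT at an adjusted p under 0.05. Since the genes were picked on this contrast, nothing is read from their share. The share of all genes whose libraries do not overlap was not counted, so nothing is read from the lack of overlap either. From these sums alone, fewer cells of a type and less RNA per cell cannot be told apart, so levels within cell classes are given beside them. Few -KTS KO cells were named as supporting cells at resolution 0.8, the clustering used for all classes. The XX libraries had 6 and 2 pre-granulosa-like and 3 and 22 pre-supporting-like cells, and the XY libraries 2 and 2, and 20 and 40. For Vgll2 and Myl1, which supporting cells mostly held in XX WT, levels within those classes are thus not given for -KTS KO.

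**Figure D1:**
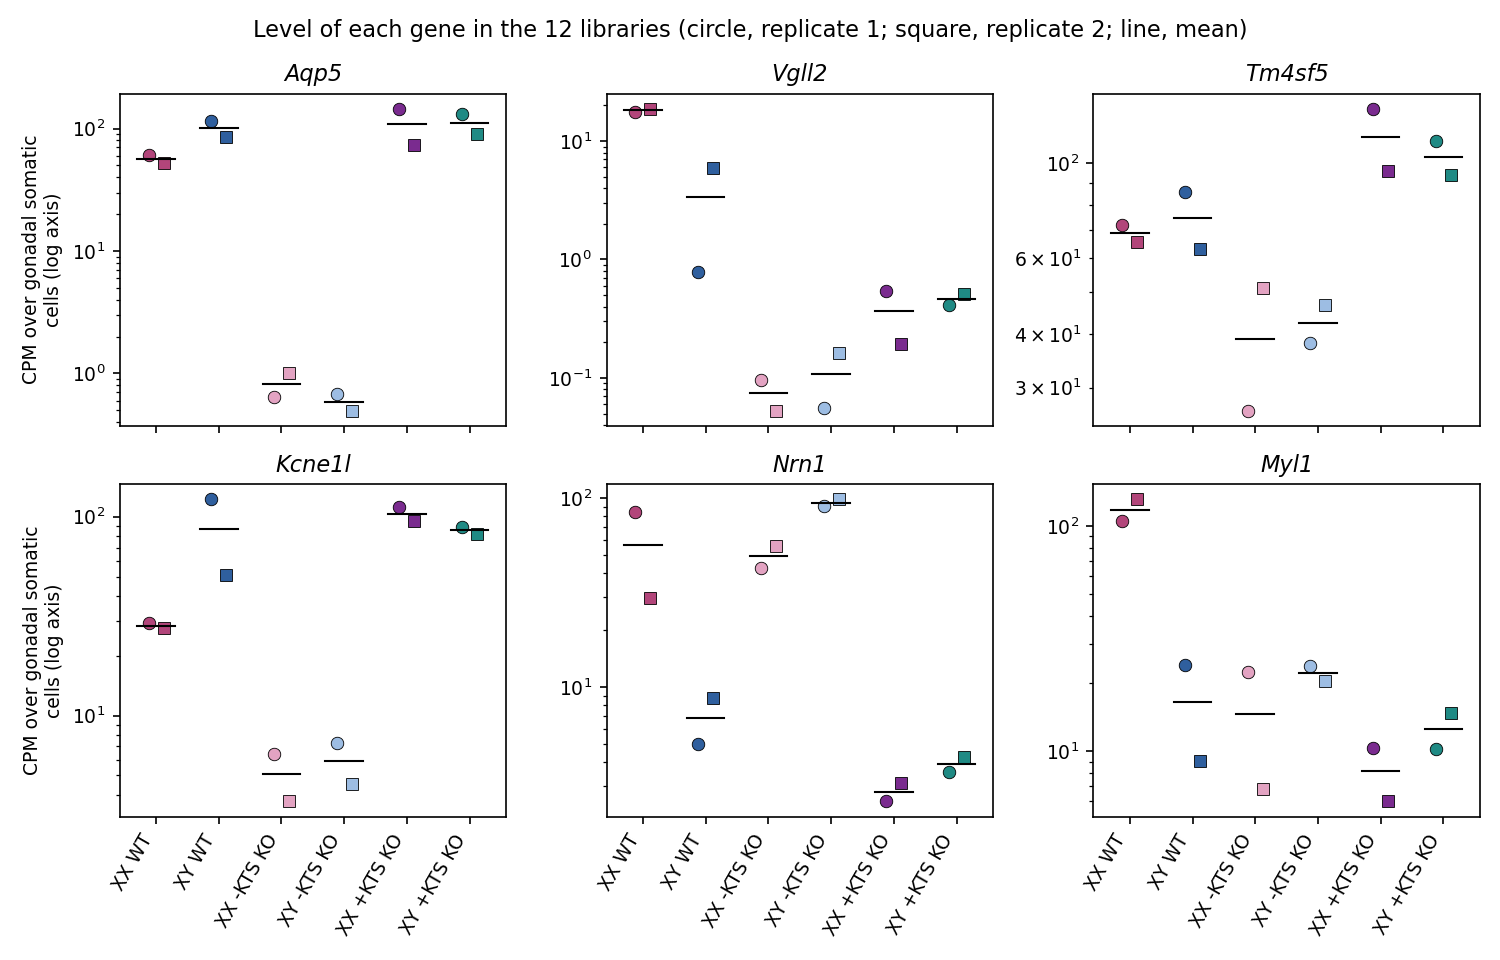
Each panel plots 1 gene, with CPM over gonadal somatic cells on a log axis and the 6 groups along the horizontal axis; circles are replicate 1, squares replicate 2 and lines the mean of both. Aqp5 sits at or under 1.00 CPM in the 4 -KTS KO libraries and at 52.1 CPM or more in the other 8, whereas Nrn1 is lowest in the +KTS KO libraries.

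Aqp5 was low in the 4 -KTS KO libraries and in no other library. Replicates 1 and 2 of XX WT stood at 60.5 and 52.1 CPM, those of XY WT at 116 and 85.0 CPM, those of XX +KTS KO at 145 and 73.2 CPM, and those of XY +KTS KO at 132 and 90.9 CPM. In -KTS KO it was at 0.646 and 1.00 CPM (XX) and at 0.683 and 0.494 CPM (XY). The lowest library with the -KTS variant was thus far above the highest without it, and the ratio of group means was 68.4 in XX and 170 in XY. The residual signal rested on 40 to 57 UMIs a library, of which coelomic-epithelium-like cells held 51.9% to 67.5%. In order of group means, XY +KTS KO, XX +KTS KO and XY WT came first and overlapped, XX WT followed at 56.3 ± 5.96 CPM (SD, n = 2), and the -KTS KO groups came last and overlapped with each other.

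Aqp5 was present in nearly every kind of gonadal somatic cell. In XX WT it was highest in pre-supporting-like cells (144 and 102 CPM) and pre-granulosa-like cells (87.3 and 83.2 CPM), lower in coelomic-epithelium-like cells (33.0 and 36.2 CPM) and lowest in interstitial-progenitor-like cells (11.4 and 14.5 CPM). In XY WT, Sertoli-like cells held 123 and 100 CPM interstitial-progenitor-like cells 89.4 and 53.4 CPM, and cells of unnamed clusters 269 and 130 CPM. XX +KTS KO had 183 and 109 CPM in coelomic-epithelium-like and 89.8 and 45.4 CPM in interstitial-progenitor-like cells. In -KTS KO, coelomic-epithelium-like cells had 1.66 to 2.10 CPM (XX) and 1.34 to 2.14 CPM (XY), and interstitial-progenitor-like cells 0.218 to 0.662 CPM (XX) and 0.229 to 0.303 CPM (XY), over 1615 to 5092 cells a group. The clusters behind these classes differed: 1 cluster held 99.1% and 99.5% of the -KTS KO coelomic-epithelium-like cells but 5.98% of those of XX WT, and the clusters that held most interstitial-progenitor-like cells were others in -KTS KO than in WT. In that coelomic-epithelium-like cluster, Aqp5 was at 113 CPM in XX WT (97 cells) and at 1.87 and 1.69 CPM in XX and XY -KTS KO. Germ-cell-like cells, which should lack the gene, had at most 3.31 CPM.

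Aqp5 lies on chromosome 15 (GRCm38, 99590782 to 99594829, plus strand). Promoter sequence is shown for Aqp5, Kcne1l and Vgll2, the genes lower in -KTS KO of both sexes by more than Tm4sf5, 5′ to 3′ on the gene's strand, from RefSeq on build GRCm38.p6. Bases are counted from the RefSeq start site. GENCODE places an exon over 246 of the 250 bases before the start of Aqp5 and over 96 of those of Kcne1l, so only 30 bases around each match are printed for Aqp5 and 154 bases for Kcne1l. Capitals mark letters found in a search of both strands of the window from 250 bases before to 50 after the start. The letters searched for were GCGTGGG, a core shared by EGR proteins and WT1 without KTS. A variant of it, GCGGGGG, was also used. The GC box was written as GGGCGG. For the nuclear receptor NR5A1 the letters were AAGGTCA. For GATA factors they were AGATAA. For TEAD factors they were CATTCCA. The last was the TATA box, TATAAA.
Aqp5 from -100 to -71 (chr15:99590928-99590957, plus strand): ctgccGCGTGGGtcacgtggcccGGGCGGg
Aqp5 from -42 to -13 (chr15:99590986-99591015, plus strand): ggtgcgcgGGGCGGGGGgctgcgagcgcgc
Kcne1l from -250 to -97 (chrX:142306295-142306448, minus strand): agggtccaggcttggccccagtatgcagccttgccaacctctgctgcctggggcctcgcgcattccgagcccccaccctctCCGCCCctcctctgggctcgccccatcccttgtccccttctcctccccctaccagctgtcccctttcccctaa
Vgll2 from -250 to -1 (chr10:52022252-52022501, plus strand): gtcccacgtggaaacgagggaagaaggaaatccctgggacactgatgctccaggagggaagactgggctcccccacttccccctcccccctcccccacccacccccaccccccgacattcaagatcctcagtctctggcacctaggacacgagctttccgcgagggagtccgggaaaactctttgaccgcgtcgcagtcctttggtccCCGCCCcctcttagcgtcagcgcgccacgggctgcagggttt
The Aqp5 window held GCGTGGG at position -95 and GCGGGGG at -32, counted to the first letter from the start site, the latter overlapping a GC box at -34. It held further GC boxes at -77 and, on the minus strand, at 39. GCGTGGG occurs in 5.04%, GCGGGGG in 10.8% and GGGCGG in 35.7% of 32851 promoter windows of that length. The windows of Kcne1l and Vgll2 each had 1 GC box, at -169 and -42 and in reverse, and no other match. Tm4sf5 had none, Myl1 had TATAAA on its minus strand at -95 (in 13.6% of windows), and Nrn1 has no entry in the table. The Aqp5 window was 79.7% G and C with 46 CG pairs, against medians of 52.7% and 7 over all windows. A match is a run of letters and not a bound site, and a window without one lacks only these letters.

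Aqp2, another water channel, ends 6234 bases before Aqp5 on the same strand (chromosome 15, 99579055 to 99584547), and Aqp6 starts 6570 bases after it. Aqp2 levels were 9.47 and 11.2 CPM for XX WT, 2.27 and 2.97 CPM for XY WT, 18.7 and 10.9 CPM for XX +KTS KO, and 11.1 and 5.95 CPM for XY +KTS KO. The -KTS KO libraries held 2, 1, 3 and 3 Aqp2 UMIs in gonadal somatic cells, at or under the floor, so no fold is given. The edgeR test called Aqp2 lower in XX (adjusted p = 5.31e-05) and in XY -KTS KO (adjusted p = 5.37e-05). Unlike Aqp5, Aqp2 was lower in XY WT than in XX WT (log2 fold change -1.91, adjusted p = 0.00414) and rose in XY +KTS KO against XY WT (1.60, adjusted p = 0.0107). Pre-granulosa-like cells held 64.1% and 65.1% of Aqp2 UMIs in XX WT, at 14.9 and 18.6 CPM. As for Aqp5, the level was higher in pre-supporting-like cells, at 26.5 and 41.3 CPM. Aqp6 had at most 2 UMIs over the gonadal somatic cells of any library.

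**Figure D2:**
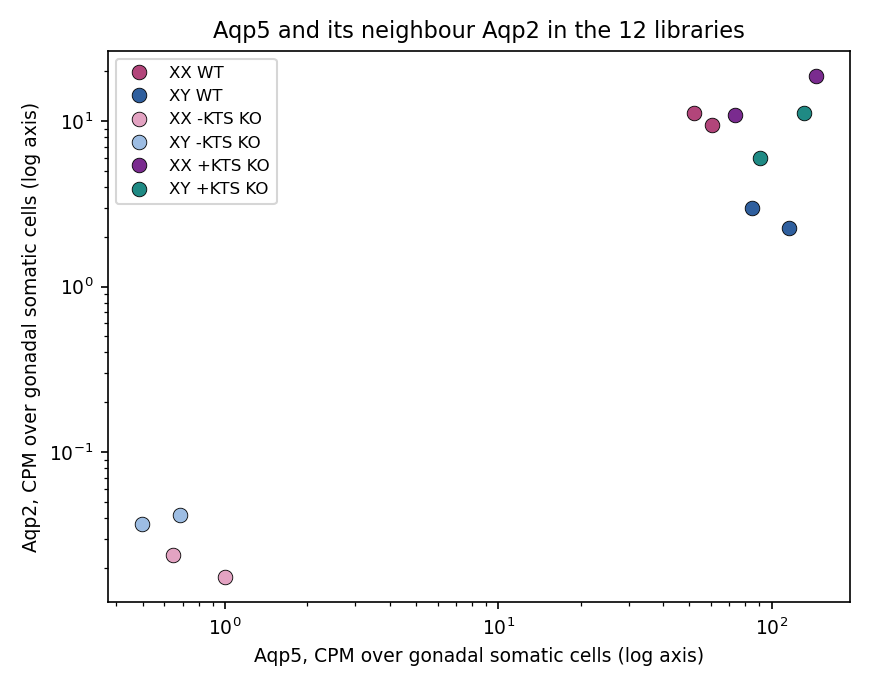
Each point is 1 library, with the CPM of Aqp5 over gonadal somatic cells on the horizontal and of Aqp2 on the vertical axis, both log axes, coloured by group. The 4 -KTS KO libraries lie alone in the lower left, where the Aqp2 values rest on 1 to 3 UMIs, and the XY WT libraries have the lowest Aqp2 (2.27 and 2.97 CPM) of the other 8.

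Among the 6 other aquaporins tested of 10 listed, only Aqp2 reached 5 CPM in a group. In -KTS KO, 1 was higher and 2 lower in XX (median log2 fold change -0.91 against 0.01 for all genes) and 2 were lower in XY (-1.03 against 0.01), where 16.3% (XX) and 23.5% (XY) of all genes were called. In +KTS KO, 1 was higher in XX (median 1.10), and 1 was higher and 1 lower in XY (median 0.77), where 5.07% and 12.5% of all genes were called.

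Kcne1l, a gene of a single exon on chromosome X (142304752 to 142306294, minus strand), was reduced to a lesser degree. WT libraries had 29.1 and 27.5 CPM (XX) or 123 and 50.9 CPM (XY), and -KTS KO libraries 6.45 and 3.70 CPM (XX) or 7.26 and 4.55 CPM (XY). Both +KTS KO groups were high, at 112 and 95.2 CPM in XX and 89.0 and 82.0 CPM in XY. The ratio of WT to -KTS KO means was 5.57 in XX and 14.7 in XY. XX +KTS KO, XY WT and XY +KTS KO led the order and overlapped at their neighbours, XX WT stood apart below them, and the -KTS KO groups were lowest and overlapped.

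At resolution 0.8, interstitial-progenitor-like cells held most Kcne1l UMIs in every library, from 55.9% to 94.5%. Their level was 59.97 and 53.6 CPM for XX WT, 185 and 100 CPM for XY WT, 195 and 165 CPM for XX +KTS KO, and 143 and 144 CPM for XY +KTS KO, against 5.76 to 12.6 CPM in the -KTS KO libraries. Most of the -KTS KO cells behind these values came from 1 cluster: the one led by Sfrp2 and Ecm1 made up 71.3% of the XX -KTS KO class and 75.9% of the XY -KTS KO class. Coelomic-epithelium-like cells of XX WT had 43.8 and 39.8 CPM, and those of XX +KTS KO 213 and 126 CPM. The border between coelomic-epithelium-like and interstitial-progenitor-like cells moved with the clustering. Both classes together held 79.9% of Kcne1l UMIs in XX WT at resolution 0.8, and 77.1% to 80.1% in the other clusterings. In XY WT, Sertoli-like cells were at only 3.46 and 4.21 CPM.

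Tm4sf5 (chromosome 11, 70505244 to 70511178, plus strand) was lower without -KTS by small ratios. WT libraries had 71.9 and 65.6 CPM (XX) or 85.5 and 63.2 CPM (XY), and -KTS KO libraries 26.5 and 51.3 CPM (XX) or 38.2 and 46.8 CPM (XY). XX +KTS KO had 134 and 95.8 CPM and XY +KTS KO 113 and 93.9 CPM, above every WT library. WT and -KTS KO libraries of the same sex did not overlap, with ratios of means of 1.77 in XX and 1.75 in XY. XX WT and XY WT overlapped, as did the 2 -KTS KO groups and the 2 +KTS KO groups.

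Almost all Tm4sf5 lay in surface and interstitial cells. In XX WT, coelomic-epithelium-like cells were at 229 and 217 CPM, interstitial-progenitor-like cells at 113 and 104 CPM and pre-granulosa-like cells at 8.97 and 6.49 CPM. The 2 former classes together held 94.0% ± 0.529 (SD, n = 2) of its UMIs, whereas the border between them moved with the clustering. The interstitial-progenitor-like cluster with 44.7% of that class in XX WT was at only 4.62 CPM over all groups. Those with 29.8% and 17.8% were at 168 and 211 CPM. In the 4 -KTS KO libraries, coelomic-epithelium-like cells were at 77.9, 115, 110 and 138 CPM and interstitial-progenitor-like cells at 15.6, 36.0, 22.9 and 18.5 CPM. The latter class came from other clusters than in WT. One with 71.3% (XX) and 75.9% (XY) of it was at 4.33 CPM over all groups. Another with 27.1% and 23.4% was at 53.4 CPM. The coelomic-epithelium-like cells of XX WT came from 1 cluster (91.7%), those of XX +KTS KO from another (90.6%) and those of -KTS KO from yet another (99.1% in XX and 99.5% in XY). XY WT had only 64 and 158 cells of this class.

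Nrn1 (chromosome 13, 36725361 to 36735131, minus strand) was lowest in the +KTS KO libraries, not in those of -KTS KO. XX WT had 83.9 and 29.4 CPM, XX -KTS KO 42.5 and 56.0 CPM and XX +KTS KO 2.49 and 3.12 CPM. In XY, WT had 5.02 and 8.72 CPM, -KTS KO 90.1 and 98.5 CPM and +KTS KO 3.56 and 4.28 CPM. XY -KTS KO thus had the highest mean (94.3 ± 5.94 CPM, SD, n = 2), 13.7 times that of XY WT. XX WT and XX -KTS KO, next in order, overlapped, and the remaining groups were each apart from their neighbours. Fars2 and Gm30177 overlap Nrn1 on the opposite strand.

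The XX WT libraries differed in Nrn1, and replicate 1 was higher in each of these classes: 51.0 and 14.3 CPM in coelomic-epithelium-like, 43.5 and 12 CPM in interstitial-progenitor-like, 114 and 44.4 CPM in pre-granulosa-like and 125 and 54.6 CPM in pre-supporting-like cells. In -KTS KO, 57.6% to 66.3% of Nrn1 UMIs lay in cells of unnamed clusters, whose level was 114, 111, 212 and 231 CPM. An unnamed cluster of 3962 cells led by Wfdc13, Wfdc10 and Cpa1 had 122 CPM (XX -KTS KO) and 228 CPM (XY -KTS KO), and 57 cells of XY -KTS KO in a pre-supporting-like cluster had 313 CPM. In +KTS KO no class of at least 50 cells in a library exceeded 15.2 CPM.

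Vgll2 (chromosome 10, 52022502 to 52028471, plus strand) was low in both mutants. XX WT had 17.6 and 18.8 CPM, and XY WT 0.779 and 5.90 CPM. The XX -KTS KO libraries had 0.0957 and 0.0526 CPM, the XY -KTS KO libraries 0.0557 and 0.161 CPM, the XX +KTS KO libraries 0.540 and 0.192 CPM, and the XY +KTS KO libraries 0.412 and 0.509 CPM. The -KTS KO values rested on 3 to 13 UMIs. Germ-cell-like cells, a measure of background, gave 0.210 and 0.234 CPM for XX WT, above the -KTS KO values. Within the -KTS KO libraries themselves such cells gave less, 0 to 0.0263 CPM (XX) or 0 CPM (XY). The gonadal somatic values were numerically above the background of their own libraries, though on few UMIs. In XX -KTS KO replicate 2 the value of 0.0526 CPM was at the floor of 3 counts, so it cannot be told from background there. Both WT groups were above all mutant libraries, the XY WT libraries differed widely, and the 4 +KTS KO libraries were above the 4 -KTS KO libraries.

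In XX WT, supporting cells held most of the gene. Pre-granulosa-like cells carried 71.6% and 74.1% of Vgll2 UMIs in XX WT, at 30.8 and 35.5 CPM, and pre-supporting-like cells 24.4% and 18.1%, at 46.1 and 43.9 CPM. Sertoli-like cells of XY WT were at 1.70 and 6.56 CPM and cells of its unnamed clusters at 3.03 and 12 CPM. In -KTS KO, cells of unnamed clusters were at 0.0601 to 0.242 CPM (XX) and 0.152 to 0.435 CPM (XY). In XY WT replicate 2, which had the higher sum, 140 pre-supporting-like cells were at 32.6 CPM and 91 pre-granulosa-like cells at 11.9 CPM, whereas replicate 1 had 26 and 19 such cells. These counts depend on the clustering. An unnamed cluster led by Cpa1, Gldn and Spp1 scored best as pre-supporting and held 726 and 1040 cells of XY WT replicates 1 and 2. At resolution 1.2 a cluster with the same leading genes was named pre-supporting, with 802 and 1122 XY WT cells. XX +KTS KO had 62 cells in the pre-granulosa-like class against 4406 in XX WT, but 3854 and 1893 of its gonadal somatic cells (50% and 43.9%) lay in unnamed clusters, so the count does not show that supporting cells were few. Of these, 4539 were in a cluster led by Cyp11a1, Pnmt and Inha whose best marker score was that of pre-supporting cells and which was left unnamed. Cells of unnamed clusters held 84.6% and 81.3% of the Vgll2 UMIs of XX +KTS KO, at 1.00 and 0.395 CPM. The part of these differences in cell makeup in the lower sum was not tested. Within pre-supporting-like cells, the level was 0.616 and 0 CPM in XX +KTS KO against 46.1 and 43.9 CPM in XX WT, over 361 and 998 cells. The same cluster held 84.9% of these cells in XX WT and 54.3% in XX +KTS KO. At resolution 1.2, however, clusters led by Sprr2d parted the groups. One had 459 and 385 cells of XX WT and 3 and 0 of XX +KTS KO, and another 7 and 6 against 190 and 32. The compared cells may thus not be alike.

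Myl1 (chromosome 1, 66924295 to 66945404, minus strand) was highest in XX WT, at 105 and 132 CPM. All other groups were lower, with 24.1 and 9.06 CPM for XY WT, 22.5 and 6.77 CPM for XX -KTS KO, 24.0 and 20.6 CPM for XY -KTS KO, 10.3 and 5.99 CPM for XX +KTS KO, and 10.2 and 14.9 CPM for XY +KTS KO. XX WT did not overlap with any of them, and neighbours among the other 5 groups all overlapped. In XX WT it was at 143 and 202 CPM in pre-granulosa-like cells, 272 and 335 CPM in pre-supporting-like cells, and 171 and 180 CPM in cells of unnamed clusters, which held 58.0%, 21.9% and 11.2% of its UMIs (means of both libraries). Pre-supporting-like cells of XX +KTS KO had 14.8 and 10.2 CPM. In -KTS KO, cells of unnamed clusters had means of 46.6 CPM (XX, 19.1 to 74.0) and 67.0 CPM (XY, 63.4 to 70.5). The means over all gonadal somatic cells were 14.6 and 22.3 CPM. The part of cell makeup in the lower sums was not tested.

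Over gonadal somatic cells the 6 skeletal muscle markers summed to 2.98 to 5.75 CPM in the 12 libraries, highest in XY +KTS KO replicate 2. Mylpf made up most of that sum (2.38 to 4.67 CPM), whereas Myod1 reached at most 0.279 CPM and Myog 0.356 CPM, with Myog at 0 in 6 libraries. In the 97 skeletal-muscle-like cells of that library, which the sums leave out, Myl1 was at 1062 CPM, Kcne1l at 151 CPM and Vgll2 at 121 CPM.

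**Figure D3:**
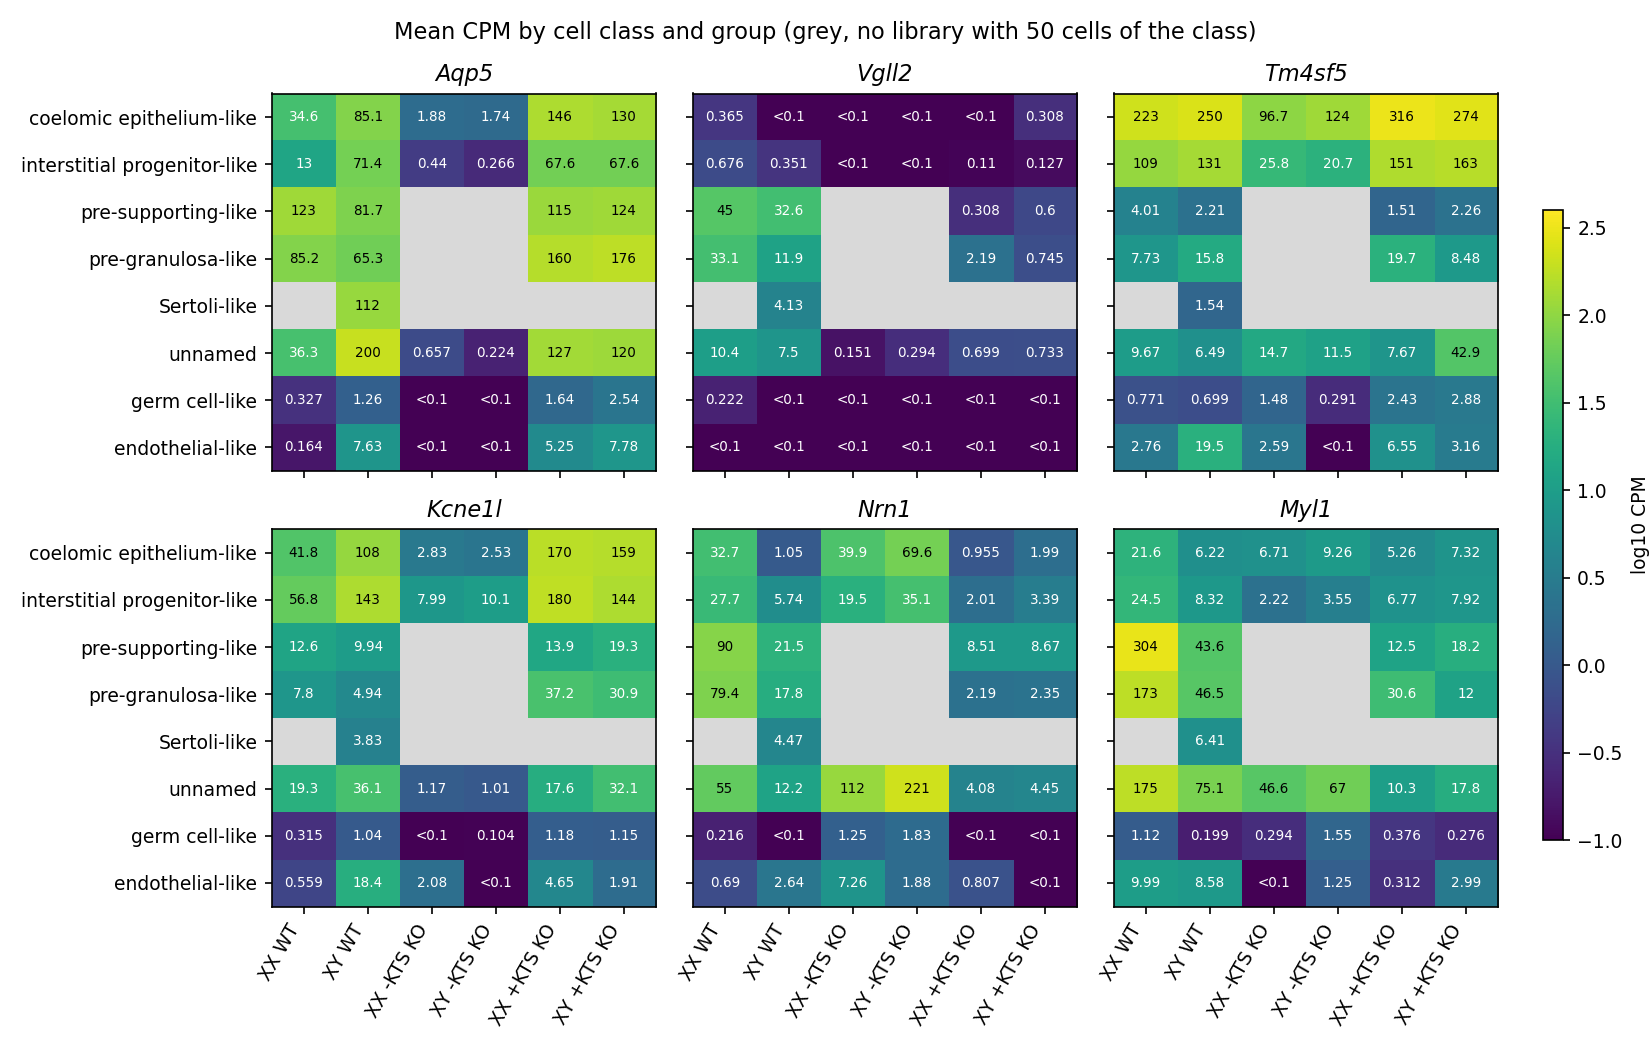
Each panel shows 1 gene as the mean CPM in each cell class (rows) and group (columns), over libraries with at least 50 cells of the class; colour is log10 CPM and grey marks classes without such a library. Aqp5 is spread over all gonadal somatic classes outside -KTS KO, Tm4sf5 and Kcne1l are highest in the coelomic-epithelium-like and interstitial-progenitor-like rows, and Vgll2 is highest in the supporting classes of WT.

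XX WT was next set against XX +KTS KO, which asked whether the genes also differ without the +KTS variant. Loss of +KTS is known to leave more of the -KTS variant in its place, and these counts cannot tell the variants apart, so absence of one and excess of the other cannot be told apart here. The XX WT libraries had also entered the choice of the genes. Over gonadal somatic cells, 5.07% of 17741 genes were called. Vgll2 fell by 5.56 ± 0.86 on the log2 scale (SE, edgeR adjusted p = 0.0080), Nrn1 by 4.31 ± 0.47 (adjusted p = 0.0022) and Myl1 by 3.80 ± 0.64 (adjusted p = 0.0116). Kcne1l rose by 1.91 ± 0.42 (adjusted p = 0.0318), in both libraries. Aqp5 (1.01 ± 0.34, adjusted p = 0.136) and Tm4sf5 (0.78 ± 0.30, adjusted p = 0.198) did not pass. For each, both mutant libraries were above both WT libraries, but the share of all genes with such an order was not counted. Aqp5 passed with DESeq2 (adjusted p = 0.0453) and without the filter on low counts (0.0273). Without either XX +KTS KO or XX WT library, Kcne1l no longer passed (adjusted p from 0.104 to 0.186). Myl1 lost its call without XX WT replicate 2 (adjusted p = 0.0550) or either XX +KTS KO library (0.0504 and 0.115), and Vgll2 without XX +KTS KO replicate 2 (0.0806).

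Within the 2 classes that were fitted, Aqp5 rose. Pre-supporting-like cells were not fitted, and Aqp5 overlapped there, at 102 to 144 CPM in XX WT and 71.8 to 159 CPM in XX +KTS KO. In cells of unnamed clusters, also not fitted, it was at 22.7 to 49.9 and 84.7 to 168 CPM. In coelomic-epithelium-like cells, where 2.71% of 14419 genes were called, Aqp5 rose by 2.12 ± 0.27 (adjusted p = 0.00159) and Kcne1l by 2.06 ± 0.27 (adjusted p = 0.00218), while Nrn1 fell by 5.04 ± 0.57 (adjusted p = 0.000893). Different clusters held most of this class in XX WT (91.7% in one) and XX +KTS KO (90.6% in another). In the cluster that both groups shared, of 97 and 166 cells, Aqp5 was at 113 CPM in XX WT and 183 CPM in XX +KTS KO, a smaller ratio than over the whole class. Kcne1l was there at 97.2 and 304 CPM, and Nrn1 at 1.48 (2 UMIs) and 0 CPM, so a fall of Nrn1 could not be seen in that cluster. In interstitial-progenitor-like cells, where 1.22% of 15833 genes were called, Aqp5 rose by 2.45 ± 0.43 (adjusted p = 0.0247) and Nrn1 fell by 3.74 ± 0.61 (adjusted p = 0.0202). The 3 clusters that held most of this class in XX WT had Aqp5 at 5.59, 17.1 and 15.96 CPM there and at 23.4, 95.4 and 100.2 CPM in XX +KTS KO. Kcne1l had 1.72 ± 0.36 there (adjusted p = 0.0518), and no other tested gene of the 6 passed in either class. Vgll2 counts in coelomic-epithelium-like cells were under the filter. These fits were added after the data were seen and rest on 1 clustering.

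XY +KTS KO was compared with XY WT in the same way, and 12.5% of genes were called. Vgll2 alone passed, with a fall of 2.88 ± 0.78 on the log2 scale (adjusted p = 0.0407). The other 5 had adjusted p-values from 0.198 to 0.951, and in interstitial-progenitor-like cells (4.84% called) none of the 6 passed (unadjusted p from 0.148 to 0.740). The Vgll2 call was lost without XY WT replicate 2 (-0.89, adjusted p = 0.323) or either XY +KTS KO library (0.150 and 0.0755), with the replicate number as a block (-2.74, adjusted p = 0.0603), and when all kept cells were summed, with the skeletal-muscle-like cells among them (-0.78, adjusted p = 0.596).

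In WT, whose libraries had also entered the choice of the genes, the sexes differed in 3 of them, against 13.3% of all genes. Nrn1 was lower in XY by 3.00 ± 0.45 (log2, adjusted p = 0.0027) and Myl1 by 2.73 ± 0.61 (adjusted p = 0.0181), whereas Kcne1l was higher by 1.72 ± 0.42 (adjusted p = 0.0254). Vgll2 (-2.42, adjusted p = 0.0542), Aqp5 (0.92, adjusted p = 0.107) and Tm4sf5 (0.20, adjusted p = 0.726) did not pass. Within interstitial-progenitor-like cells, where 2.03% of genes were called, Aqp5 was higher in XY by 2.60 ± 0.43 (adjusted p = 0.0139) and no other of the 6 passed. In XY WT, 48.3% of the class came from a cluster led by Dkk1 and Hsd11b2 in which XX WT had 61 and 66 cells. In clusters that both sexes shared, Aqp5 did not always follow: it was at 17.1 CPM in XX and 77.6 CPM in XY WT in one, at 5.59 and 9.68 CPM in another, at 13.6 and 87.9 CPM in the one led by Dkk1 and Hsd11b2, and lower in XY in the last (15.96 and 3.48 CPM, 500 and 139 cells). Leaving out XY WT replicate 1 took the Kcne1l difference to 0.85 (adjusted p = 0.207), and without either XX WT library it had an adjusted p of 0.116 or 0.146. Myl1 lost its call without either XX WT library (adjusted p = 0.0576 and 0.0789) or XY WT replicate 2 (0.0768). Vgll2 passed without XY WT replicate 2 (-4.41, adjusted p = 0.00422) and without the filter on low counts (0.00579), and Aqp5 with DESeq2 (0.0416) and without that filter (0.0331).

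Between XY and XX +KTS KO none of the 6 genes passed with edgeR (adjusted p = 0.997 for each, and unadjusted p from 0.329 to 0.874) or with DESeq2. Of all genes edgeR called 7 of 17741 (0.0395%) and DESeq2 called 26. The differences lay between -0.34 ± 0.41 for Kcne1l and 0.57 ± 0.59 for Myl1 (log2 ± SE). The effect of losing +KTS differed between the sexes for Nrn1, by 3.44 ± 0.61 (XY minus XX, log2, adjusted p = 0.0176), with 3.97% of genes called. Nrn1 lost this call without XY WT replicate 1 or either XX +KTS KO library (adjusted p from 0.0640 to 0.0753). Nrn1 was already lower in XY than in XX WT (-3.00, edgeR adjusted p = 0.0027). Between the +KTS KO sexes it was at 0.44 (adjusted p = 0.997). Pre-granulosa-like cells numbered 2200 and 2206 in XX WT but 19 and 91 in XY WT, and the part of cell makeup was not tested. For this difference in effect the other 5 genes did not pass in the edgeR fit. Myl1 was at 3.30 (adjusted p = 0.0614), Kcne1l at -2.05 (adjusted p = 0.0850) and Vgll2 at 2.69 (adjusted p = 0.203). This depended on the settings: Myl1 and Kcne1l passed with DESeq2 and without the filter on low counts, and Myl1 with a replicate block.

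**Figure D4:**
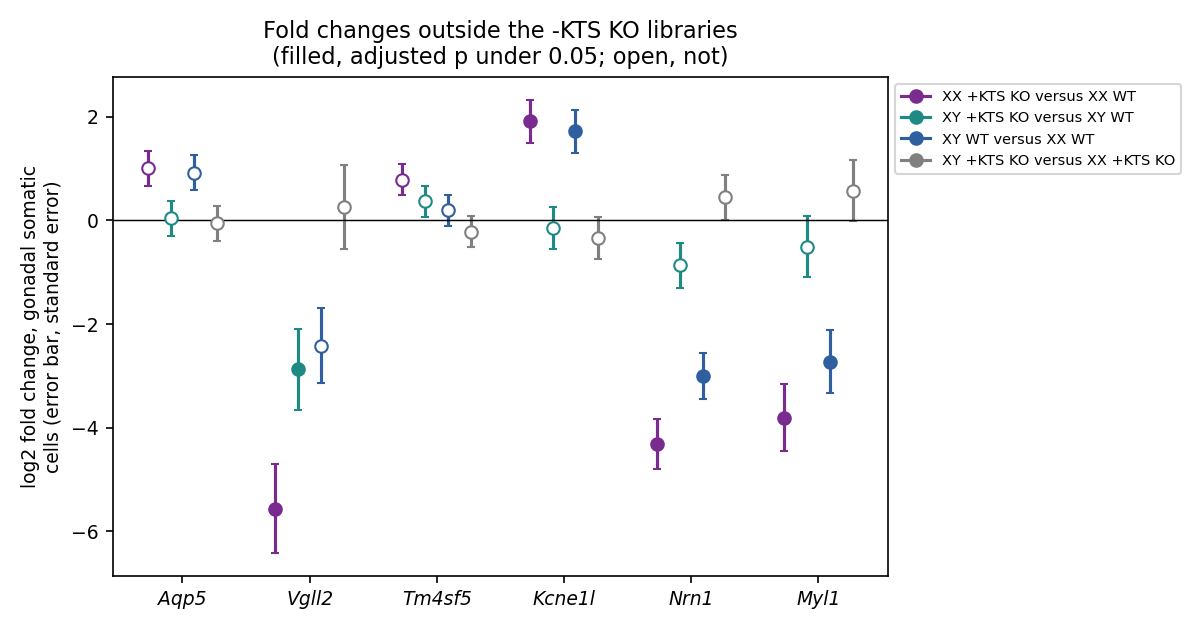
Points are log2 fold changes of the 6 genes over gonadal somatic cells in 4 comparisons that do not use the -KTS KO libraries. Bars are 1 standard error, and filled points have an adjusted p (edgeR) under 0.05. The WT libraries also entered the choice of the genes, so only XY against XX +KTS KO is free of that choice. Vgll2, Nrn1 and Myl1 are filled and below 0 for XX +KTS KO against XX WT, Kcne1l is filled and above 0, and no point is filled for XY against XX +KTS KO.

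Counted per cell, after each cell was thinned to 5000 UMIs, the share of gonadal somatic cells with a UMI of Aqp5 was 15.5% ± 0.944 (SD, n = 2) for XX WT, 24.5% ± 4.58 for XY WT, 26.4% ± 9.76 for XX +KTS KO and 29.1% ± 8.28 for XY +KTS KO. The -KTS KO shares were 0.315% ± 0.0440 (XX) and 0.233% ± 0.0388 (XY). Germ-cell-like cells, a measure of background, had 0% in both -KTS KO groups and 0.223% to 0.763% in the other groups, with median depths above those of the somatic cells. Before thinning the shares were 27.1% and 36.5% in XX and XY WT and 0.923% and 0.754% in XX and XY -KTS KO. Thinning left out 442 to 1872 cells a group, and median depths were 11153 to 15383 UMIs. Vgll2 was seen in 5.78% ± 0.299 of XX WT cells, 1.21% ± 1.23 of XY WT cells and from 0% to 0.288% of cells in the mutant libraries.

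Cells with UMIs of 3 or more of the genes made up 2.23% to 6.36% of gonadal somatic cells in WT and +KTS KO libraries and 0.0945% to 0.239% in -KTS KO libraries. The genes were chosen on low levels in -KTS KO, so the lower share there is no separate result. Cells of a library share its depth and clusters, so these shares are a description.

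**Figure D5:**
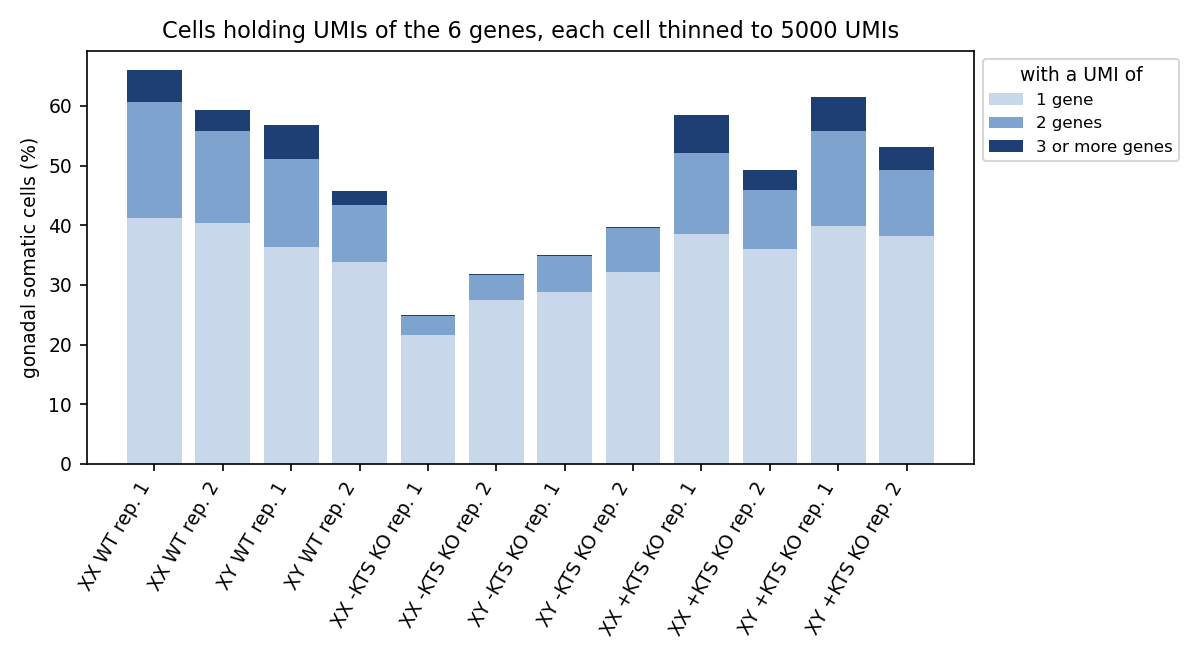
Bars are the 12 libraries and show the percentage of gonadal somatic cells with a UMI of 1, 2 or at least 3 of the 6 genes, each cell thinned to 5000 UMIs. The segment for 3 or more genes spans 2.23% to 6.36% of cells in WT and +KTS KO libraries. It is at most 0.239% in the -KTS KO libraries, on whose low levels the genes were chosen.

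The genes most like each of the 6 over the 12 libraries were found by Pearson correlation of log2 CPM among 6503 genes. Aqp5 was closest to Rhox8, a homeobox gene of gonadal somatic cells (r = 0.992), Tst (0.991) and Trp53i11 (0.988). Kcne1l was closest to Rasgrp2 (0.990), Ier5 (0.988) and Tnfrsf1a (0.981), and Tm4sf5 to Pltp (0.935), Ralb (0.928) and Ppp1r14a (0.926). Nrn1 was closest to Selenbp1 (0.958), Adipor1 (0.956) and Smim10l2a (0.955), Vgll2 to Snx9 (0.942), Rras2 (0.930) and Dusp9 (0.923), and Myl1 to Maoa (0.869), Plin2 (0.864) and Bri3bp (0.863). The libraries include those of -KTS KO, on whose low levels the genes were chosen, so any gene low in the same libraries ranks high for Aqp5. The 12 points come in pairs of 1 group and share depth and cell makeup, so the values are a description with no p.

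Over 30 clusters of at least 200 cells, with log2(CPM + 1), the closest genes were others. Tm4sf5 went with Upk3b, a marker of coelomic epithelium (r = 0.905), Hoxd9 (0.881) and Myl7 (0.874), and Kcne1l with Mgp (0.934), St8sia2 (0.919) and Ednra (0.916). Aqp5 went with Shisa2 (0.875), Plxdc1 (0.864) and Inhbb, a subunit of inhibin and activin (0.863). Vgll2 and Myl1 shared Pnliprp1 among their 3 (0.825 and 0.876), beside Col12a1 (0.845) and Tgm3 (0.832) for Vgll2 and Serpinb6b (0.882) and Timm8a1 (0.879) for Myl1. Nrn1 went with Lbx2 (0.901), Gm26611 (0.859) and Tmem50b (0.854).

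Partners and relatives of the genes were tested as fixed lists. Of 9 other vestigial-like, TEAD and coactivator genes, 8 were tested. In -KTS KO, 2 rose and 2 fell in XX, and 3 rose and 1 fell in XY, against 16.3% and 23.5% of all genes called in either direction. Wwtr1, the coactivator TAZ that binds TEADs, fell by 1.47 in XX (log2, adjusted p = 0.00286) and by 0.86 in XY (adjusted p = 0.0230), from 117 and 114 CPM in XX WT to 42.7 and 37.0 CPM in XX -KTS KO. Tead2 rose in -KTS KO of both sexes (0.43 and 0.44, adjusted p = 0.0349 and 0.0253), and Tead3 rose in both sexes of both mutants (0.47 to 0.77). Yap1 and Tead1 passed in no comparison.

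Of 10 potassium channel subunits other than Kcne1l, 8 were tested. Kcnh2, a channel pore subunit, rose in XX +KTS KO (0.92, adjusted p = 0.0300) and XY +KTS KO (0.76, adjusted p = 0.0353), and was the only one at 5 CPM in a group. No other subunit was called in XX +KTS KO and 1 fell in XY +KTS KO, where 5.07% and 12.5% of all genes were called. In -KTS KO 1 of the 8 fell in XX, near the 16.3% of all genes called there, and 2 rose and 1 fell in XY, against 23.5%. The 1 tested relative of Tm4sf5 (of 4) and Nrn1l, the other neuritin, passed in no comparison.

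Of 11 other myosin light chains, 10 were tested, and none passed with edgeR between XX -KTS KO or XX +KTS KO and XX WT, where Myl1 was low and 16.3% and 5.07% of all genes were called. Myl4, an atrial and embryonic chain, was at 5.0 and 7.39 CPM in the XX WT libraries and 38.2 and 20.3 CPM in those of XY WT (log2 fold change 2.34, adjusted p = 0.00192). It fell in XY -KTS KO by 3.05 (adjusted p = 0.000282) and in XY +KTS KO by 1.43 (adjusted p = 0.0179), the latter together with Myl7 (by 1.42, adjusted p = 0.0356). Of the 10, 1 was called between the WT sexes, 1 in XY -KTS KO and 2 in XY +KTS KO. Of all genes, 13.3%, 23.5% and 12.5% were called there. Of 10 skeletal muscle genes, 5 were tested, and Tnnt3, a fast troponin T, rose in XX -KTS KO by 3.13 (adjusted p = 0.00153) and in XY -KTS KO by 2.38 (adjusted p = 0.00326), from 0.609 to 1.14 CPM in WT to 4.33 to 7.0 CPM. It was the only 1 of the 5 called in either sex, against 16.3% (XX) and 23.5% (XY) of all genes.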

How the data were processed

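Single-cell RNA of 12 libraries was analysed. The authors deposited raw UMI counts, made with Cell Ranger 6.0 on mm10 and not normalized. The paper names kit version 3 and the labels version 2. Barcodes under 1000 genes or over 10% mitochondrial UMIs were dropped, and the highest 0.8% per 1000 barcodes by Scrublet score (scanpy 1.11.5) were removed as doublets, since its own threshold called at most 3 barcodes in 9 libraries. Cells were clustered with sctransform 0.4.2 and Seurat 5.3.0 (3000 variable genes without the 6 studied, 50 components, resolution 0.8). Clusters were named from fixed markers, with score thresholds set after the clusters were seen. Rebuilt names may differ from the study's.

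UMIs were summed per library over gonadal somatic cells and tested with edgeR 4.0.16 (TMM, quasi-likelihood, 6 groups, no block, Benjamini-Hochberg, 0.05). The fit was tested on simulated data. The alternatives were DESeq2 1.42.0, other size factors, no filter, a replicate block, other cells, other clusterings and each library left out. The floor of 3 counts covers counting error only.

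The members and lists were chosen with earlier results of these data known. Named were the 6 genes, Wt1, relatives reaching 5 CPM in a group, the 3 most like genes by each measure, and markers. Nrn1l, Fos, Jun, Egr1, Aqp6 and genes leading a cluster were named after values were seen.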

Additional observations from a re-analysis of the deposited data

Results flagged for a closer look

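The effect of losing +KTS on Nrn1 differed between XY and XX gonads: the interaction term was 3.44 on the log2 scale (edgeR, adjusted p = 0.0176). That call was lost when XY WT replicate 1 or either XX +KTS KO library was left out. Nrn1 fell from 83.9 and 29.4 CPM to 2.49 and 3.12 CPM in XX, and was at 5.02 and 8.72 CPM against 3.56 and 4.28 CPM in XY. It was thus already low in XY WT, and the part of cell makeup in this difference was not tested.

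In cells outside the gonadal somatic classes, 3 of the genes were above every WT library's gonadal somatic level in skeletal-muscle-like cells: Myl1 at 1062 CPM, Kcne1l at 151 CPM and Vgll2 at 121 CPM. These 97 cells all came from XY +KTS KO replicate 2.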

How the results depend on the processing

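Counts of called genes depended on the settings. With DESeq2 in place of edgeR they were 1513 for XX +KTS KO against XX WT (900 with edgeR), 26 for XY against XX +KTS KO (7) and 1493 for the difference between the sexes (705). Without the filter on low counts they were 1400, 16 and 1227. With all kept cells summed, and with doublet-scored barcodes kept and no clustering, they were 447 and 453 for XX +KTS KO, 1203 and 1281 for XY WT against XX WT (2351), 1463 and 1511 for XX -KTS KO (2892), 2409 and 2450 for XY -KTS KO (4165), and 251 and 278 for the difference between the sexes. Fits within 1 class, chosen after the data were seen, called 193 (interstitial-progenitor-like) and 391 (coelomic-epithelium-like) for XX +KTS KO, 767 for XY +KTS KO (2210) and 321 for XY WT against XX WT. Leaving out 1 library gave 157 to 321 for XX +KTS KO, 734 to 3028 for XY +KTS KO, 825 to 2001 for XY WT against XX WT, 6 to 125 for XY against XX +KTS KO, 1170 to 1451 for XX -KTS KO, 2164 to 2732 for XY -KTS KO and 176 to 1523 for the difference between the sexes. The extremes were without XX +KTS KO replicate 2 (157), XY WT replicate 1 (734 and 825), XX WT replicate 2 (176) and XY +KTS KO replicate 2 (3028, 125 and 1523). The lone library of a group was then assumed to vary like the others. The cause of these differences was not tested.

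Directions that turned were of values that passed no test. In XY +KTS KO, Aqp5 was at -0.013 with DESeq2 and with RLE size factors, at -0.23 in interstitial-progenitor-like cells and from -0.23 to 0.36 with a library left out (-0.23 without XY WT replicate 2, -0.14 without XY +KTS KO replicate 1). Kcne1l was at 0.11 with all kept cells, 0.14 with doublets kept and from -0.68 to 0.73 with a library left out, and Myl1 at 0.54, 0.50 and from -1.08 to 0.47, both highest without XY WT replicate 1. Tm4sf5 in XY WT against XX WT ranged from -0.12 (without XY WT replicate 1) to 0.45. Between the +KTS KO sexes, leaving out a library gave -0.51 to 0.58 for Aqp5 (also 0.12), -0.32 to 1.26 for Vgll2 and -0.49 to 0.089 for Tm4sf5.

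Replicate numbers did not pair the samples (correlations of deviations from -0.205 to 0.173). With the replicate block, 796, 1932, 2122, 6, 2715, 3930 and 533 genes were called in the 7 comparisons in the order of the report's tests, -KTS KO contrasts before the last. Among the 6 genes the block ended the Vgll2 call in XY +KTS KO (-2.74, adjusted p = 0.0603) and gave one to Myl1 in the difference between the sexes (3.61, adjusted p = 0.0478). With all kept cells, and with doublets kept, calls were lost for Kcne1l (adjusted p = 0.0520 and 0.0511) and Myl1 (0.0572 and 0.0585) in XX +KTS KO, and for Kcne1l (0.0701 and 0.0695) and Myl1 (0.0779 and 0.0743) between the WT sexes. In the difference between the sexes, Kcne1l and Myl1 passed with DESeq2 (0.00619 and 0.0175) and without the filter (0.00854 and 0.00295), and Kcne1l (0.0140) and Vgll2 (0.0147) without XY WT replicate 2. The border between coelomic-epithelium-like and interstitial-progenitor-like cells moved with the clustering: the former held 0.254% of Tm4sf5 UMIs of XX WT at resolution 0.4 and 92.6% with log-normalized values, while both classes together held 93.9% and 94.5%.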

Other observations

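Endothelial-like cells held low levels of several of the genes, and the class was made of 2 clusters in shares that differed between groups. One cluster made up 57.9% of the class in XY WT, 32.0% in XX WT and 11.5% to 44.1% in the mutant groups. In that cluster, Kcne1l was at 31.1 CPM and Tm4sf5 at 34.3 CPM in XY WT, against 1.16 and 6.16 CPM in XX WT and 13.8 and 16.9 CPM in XY +KTS KO. Myl1 was there at 28.1 CPM in XX WT, 15.3 CPM in XY WT and 29.2 CPM in XY +KTS KO. In XX and XY -KTS KO, over 83 and 72 cells of it, Kcne1l was at 8.37 and 0 CPM, Tm4sf5 at 2.79 and 0 CPM and Myl1 at 0 CPM in both, with at most 3 UMIs behind a value. In the other cluster none of these 3 genes exceeded 2.88 CPM in any group. The values are sums over both libraries of a group, with at least 50 cells, and have no test. Neither doublets nor free RNA were tested as a source.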
